A study of Mus musculus with 9 samples.

Results

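Pyramidal neurons of CA3 and CA2 lie next to the PV INs whose ribosomes were pulled down, and 10 genes known from those pyramidal neurons or from excitatory neurons at large were followed through all 9 samples of the pulldown. The genes were taken from a list written by symbol, out of 37620 genes in the count files, and all 10 passed the filter on low values. Camk2a, Camk2b, Ncdn, Slc17a7 and Nrgn were listed as genes of excitatory neurons, Rgs14, Amigo2, Pcp4 and Ptpn5 as genes of CA2 and Bok of CA3. The grouping is that of the list and does not mean that PV INs lack these RNAs. How much of each came from the PV INs themselves was not measured. No sample of unprecipitated tissue was analysed here, so whether the pulldown enriched or depleted these transcripts was not measured.

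All mice were 2 months old and carried PV-Cre with the Cre-dependent, HA-tagged ribosomal protein allele Rpl22HA, so that tagged ribosomes are made only where the parvalbumin promoter has driven Cre. A lentivirus was injected into the DG and expressed either a non-target hairpin (shNT, 5 samples) or a hairpin against Ablim3 (shRNA, 4 samples), and CA2/CA3 tissue was collected 2 weeks later. Each sample combined tissue of 6 mice of both sexes, so the spread between samples is a spread between pools. Ablim3 is a brake on the filopodia by which mossy fibers contact PV INs, and the comparison asks which ribosome-associated RNAs of PV INs differ when that brake is lowered in the DG.

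PV INs are GABAergic cells that inhibit the somata of pyramidal neurons, and they load their vesicles through the GABA transporter Slc32a1. Pyramidal neurons of CA3 and CA2 are glutamatergic, load vesicles through Slc17a7 and carry abundant CaMKII in their spines. CA2 is a small field between CA3 and CA1 that expresses a set of proteins known to restrain synaptic plasticity, among them Rgs14 and Ptpn5.

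Reads counted on genes numbered from 19680352 to 34578837 per shNT sample and from 18281719 to 30421093 per shRNA sample, and each of the 10 genes had between 198 and 51727 reads in every sample. Levels are given as CPM, which are counts scaled to the size of each library after TMM normalization. PV IN markers were abundant in every sample, with Gad1, which makes GABA, at 1229 to 3557 CPM and Pvalb at 310.0 to 1375 CPM. The shRNA target Ablim3, which was lowered in the DG and not in the cells pulled down, was at 22.6, 12.1, 22.2, 15.4 and 12.3 CPM in shNT samples 1 to 5 and 21.7, 19.5, 19.4 and 13.7 CPM in shRNA samples 1 to 4, and therefore gives no check of the labels. Of all samples, shNT sample 2 and shRNA sample 4 had the lowest sums over 11 PV IN markers, at 5502 and 3866 CPM against 6101 to 10076 CPM in the other 7. The share of uniquely aligned reads outside annotated exons was 27.2% in shRNA sample 4 and between 9.77% and 19.8% in the other samples.

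None of the 10 genes was called (FDR below 0.05 and at least 1.5-fold apart), against 1.75% of the 15069 genes tested, 1.74% higher and 0.0133% lower in the shRNA samples (edgeR's quasi-likelihood or QL test, with p-values adjusted over all of them by Benjamini-Hochberg; FDR). The differences lay in 3 ranges. Camk2a, Camk2b, Slc17a7, Rgs14 and Amigo2 were 1.49 to 1.69 times as high in the shRNA samples, whereas Ncdn and Bok were 1.14 and 1.24 times as high and Ptpn5, Nrgn and Pcp4 were at 0.99, 0.91 and 0.89 of the shNT level. The log2 fold change was above 0 in 7 of the 10 genes (57.9% of all genes) and below 0 in 3 (42.1%). Its median was 0.44 over the 10 genes and 0.11 over all genes tested. In 4 of the 10 genes (Camk2b, Slc17a7, Rgs14 and Amigo2) the lowest shRNA sample exceeded the highest shNT sample, which held for 8.97% of all genes, and in 0 of the 10 did every shRNA sample lie below, against 6.68% of all genes. At an unadjusted p under 0.05 there were 5 of the 10 genes, all higher in the shRNA samples, against 20.7% of all genes (edgeR QL test).

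**Figure D1:**
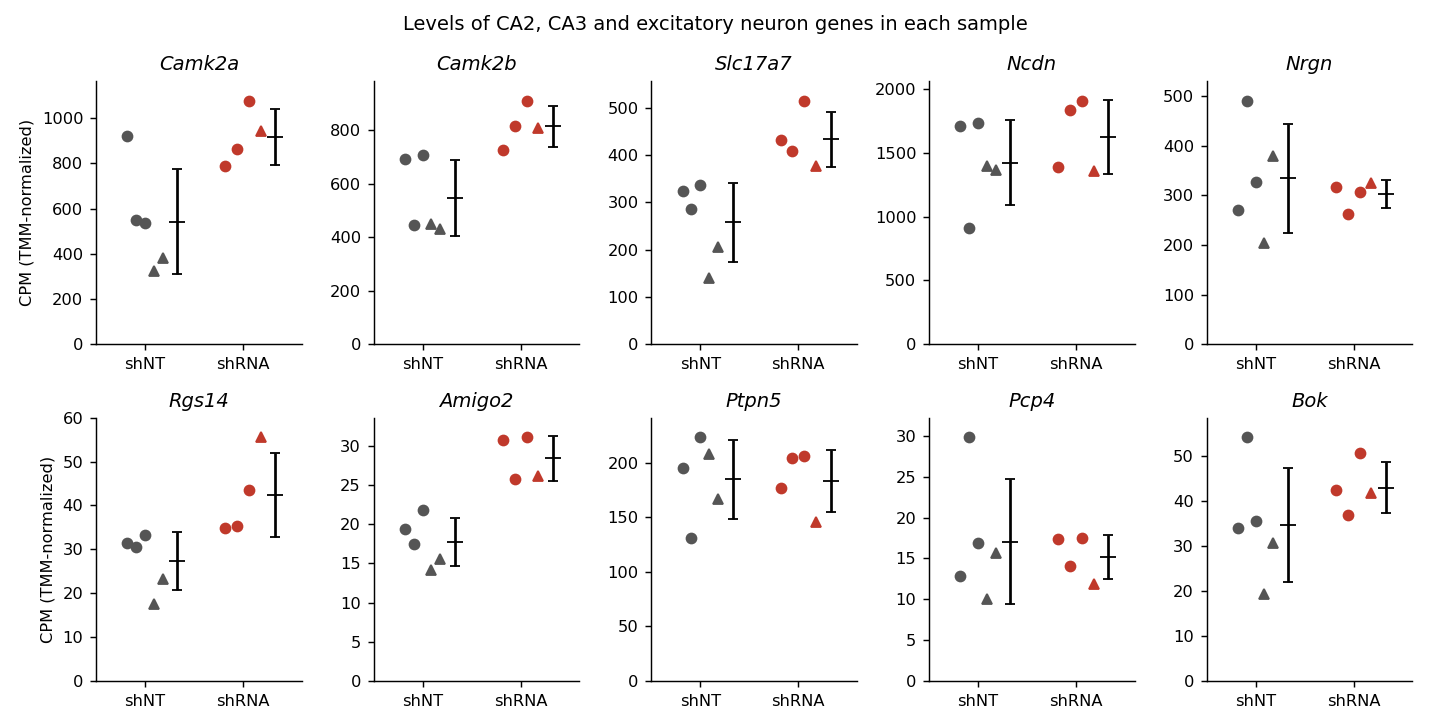
Level of each gene in each sample, in CPM normalized with TMM on a linear axis from 0, with shNT samples in grey and shRNA samples in red, and with circles for the larger and triangles for the smaller set of sample names. Bars beside the points give the mean and SD of 5 shNT and 4 shRNA samples; the groups are separate for Camk2b, Slc17a7, Rgs14 and Amigo2 and overlap for the other genes.

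Camk2a encodes the alpha subunit of CaMKII, the calcium and calmodulin dependent kinase of excitatory synapses (ENSMUSG00000024617, mm9 chromosome 18 from 61085272 to 61147806, plus strand). Its level was 921, 549.5, 535, 326 and 382 CPM in shNT samples 1 to 5 and 788, 862, 1078 and 943 CPM in shRNA samples 1 to 4. The groups overlapped through shNT sample 1, which lay above 2 of the 4 shRNA samples, while the other 4 shNT samples lay below all of them. shNT samples averaged 543 ± 232 CPM (SD, n = 5) against 917 ± 124 CPM (SD, n = 4) in shRNA samples, and the log2 fold change was 0.76 (SE 0.28, edgeR QL test FDR = 0.0924). Without shNT sample 1 the log2 fold change was 1.03 and passed the call rule (edgeR QL test FDR = 0.0332). In that setting 9.41% of all genes tested passed it.

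Camk2b encodes the beta subunit, which binds actin and shares holoenzymes with the alpha subunit (ENSMUSG00000057897, chromosome 11 from 5869647 to 5966365, minus strand). It was at 693, 444, 709, 448 and 432 CPM in the shNT samples and 725, 815, 911 and 808 CPM in the shRNA samples. The groups did not overlap, but shNT samples 1 and 3 came close to the lowest shRNA sample. The shNT mean of 545 ± 142 CPM (SD, n = 5) and the shRNA mean of 815 ± 76.0 CPM (SD, n = 4) gave a log2 fold change of 0.58 (SE 0.20, edgeR QL test FDR = 0.0854). The ratio of Camk2a to Camk2b reads within a sample, which does not depend on normalization, was 1.33, 1.24, 0.755, 0.727 and 0.885 in the shNT samples and 1.09, 1.06, 1.18 and 1.17 in the shRNA samples. The shRNA samples lay inside the range of the shNT samples, with 0.986 ± 0.279 (SD, n = 5) against 1.12 ± 0.0613 (SD, n = 4), for which exact permutation of the log2 ratio, two-sided, gave p = 0.278 (0.417 adjusted over 3 ratios).

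Slc17a7 encodes VGLUT1, the vesicular glutamate transporter of most hippocampal excitatory neurons (ENSMUSG00000070570, chromosome 7 from 52419291 to 52431508, plus strand). Its level was 323, 286, 336, 140.4 and 205 CPM in the shNT samples and 431, 408, 516 and 378 CPM in the shRNA samples. All shRNA samples lay above all shNT samples, and shNT samples 4 and 5 were the lowest. shNT samples averaged 258 ± 83.4 CPM (SD, n = 5) against 433 ± 59.1 CPM (SD, n = 4) in shRNA samples, which is a log2 fold change of 0.75 (SE 0.25, edgeR QL test FDR = 0.0754).

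Set against the GABA transporter Slc32a1 in the same sample, Slc17a7 had 1.31, 1.73, 1.14, 0.445 and 0.718 reads per Slc32a1 read in the shNT samples and 2.24, 1.56, 2.22 and 4.77 in the shRNA samples. The highest ratio was in shRNA sample 4, in which Slc32a1 was at 79.2 CPM against 165 to 315 CPM in the other samples, and shRNA sample 2 lay below shNT sample 2. The mean ratio was 1.07 ± 0.503 (SD, n = 5) against 2.70 ± 1.42 (SD, n = 4), a log2 difference of 1.36 (exact two-sided permutation test, p = 0.0238, 0.0714 adjusted over 3 ratios). Within the larger set of sample names (shNT samples 1 to 3 and shRNA samples 1 to 3) the log2 difference was 0.53 (exact permutation test, p = 0.2, where the smallest p possible is 0.1). In a pulldown from pooled tissue, cell numbers, RNA per cell and carry-over of RNA from cells without the tag cannot be told apart.

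**Figure D2:**
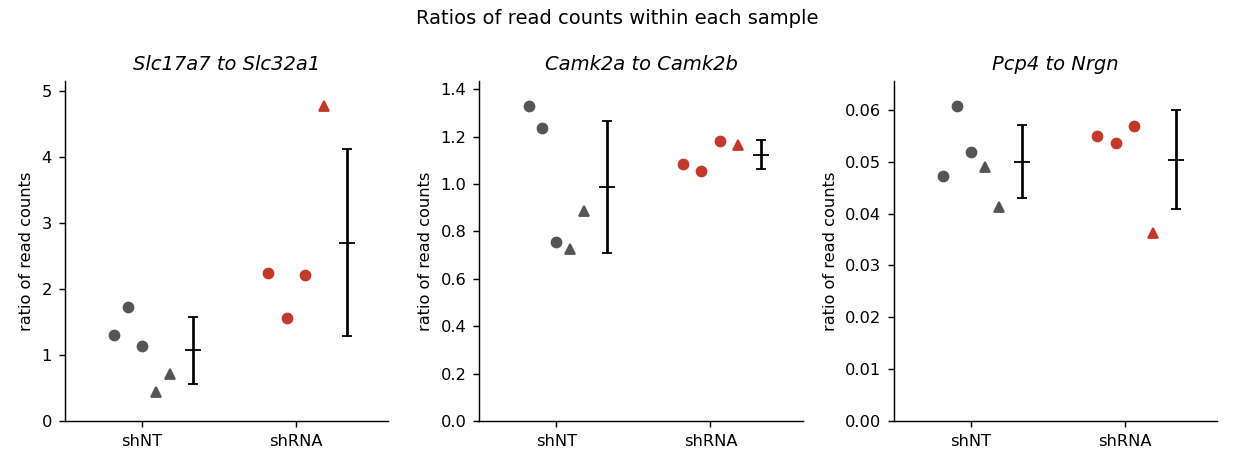
Ratio of the read counts of 2 genes within each sample, on linear axes from 0, for Slc17a7 to Slc32a1, Camk2a to Camk2b and Pcp4 to Nrgn, with symbols and bars (mean and SD) as in the plot of levels. For Slc17a7 to Slc32a1 the shRNA samples run from 1.56 to 4.77 and the shNT samples from 0.445 to 1.73; the other ratios overlap widely.

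Ncdn encodes neurochondrin, a cytoplasmic neuronal protein that is found in dendrites and limits CaMKII phosphorylation (ENSMUSG00000028833, chromosome 4 from 126420994 to 126430682, minus strand). It was the most abundant of the 10 genes, at 1708, 909, 1736, 1397 and 1367 CPM in the shNT samples and 1389.7, 1838, 1909 and 1358 CPM in the shRNA samples. The groups overlapped, and shNT sample 2 stood below the rest. The shNT mean of 1423 ± 334 CPM (SD, n = 5) and the shRNA mean of 1624 ± 290.3 CPM (SD, n = 4) differed by 0.19 on the log2 scale, with a 95% interval from -0.30 to 0.68 (edgeR QL test FDR = 0.555).

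Nrgn encodes neurogranin, a small postsynaptic protein that holds calmodulin when calcium is low (ENSMUSG00000053310, chromosome 9 from 37352078 to 37360330, minus strand). Its level was 270.4, 491, 327, 204 and 379.7 CPM in the shNT samples and 316, 262, 307 and 326 CPM in the shRNA samples. The shRNA samples all lay inside the shNT range, which was set by shNT samples 2 and 4. shNT samples averaged 334 ± 109 CPM (SD, n = 5) against 303 ± 28.4 CPM (SD, n = 4) in shRNA samples, and the log2 fold change of -0.14 had a 95% interval from -0.65 to 0.37 (edgeR QL test FDR = 0.677).

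Among the CA2 genes, Amigo2 had the clearest separation. It encodes a cell adhesion protein with leucine-rich repeats and lies on chromosome 15 from 97074505 to 97077718, minus strand (ENSMUSG00000048218); 2.02% of its exon bases are shared with Fam113b, and reads there were not assigned. Its level was 19.4, 17.5, 21.9, 14.2 and 15.6 CPM in the shNT samples and 30.7, 25.7, 31.1 and 26.1 CPM in the shRNA samples. The groups were well apart, and its spread over the shNT samples was the smallest of the 10 genes, with a coefficient of variation of 17.1%. The shNT mean of 17.7 ± 3.04 CPM (SD, n = 5) and the shRNA mean of 28.4 ± 2.90 CPM (SD, n = 4) gave a log2 fold change of 0.68 (SE 0.15, 95% interval 0.34 to 1.02). The FDR of 0.0503 missed the threshold (edgeR QL test), and Amigo2 passed in 6 of 23 alternative settings.

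Rgs14 encodes a scaffold and regulator of G protein signalling that suppresses plasticity in CA2 (ENSMUSG00000052087, chromosome 13 from 55471093 to 55486048, plus strand). It was at 31.5, 30.5, 33.4, 17.6 and 23.3 CPM in the shNT samples and 35.0, 35.4, 43.5 and 55.6 CPM in the shRNA samples. The groups did not overlap, by a margin of less than the SD of either group, and shRNA sample 4 was the highest. shNT samples averaged 27.3 ± 6.63 CPM (SD, n = 5) against 42.3 ± 9.64 CPM (SD, n = 4) in shRNA samples, which is a log2 fold change of 0.63 (SE 0.21, edgeR QL test FDR = 0.0778). Within the larger set of sample names, which leaves out shNT samples 4 and 5 and shRNA sample 4, the log2 fold change was 0.22 (edgeR QL test FDR = 0.533).

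Ptpn5 encodes STEP, a tyrosine phosphatase that dephosphorylates glutamate receptor subunits and kinases (ENSMUSG00000030854, chromosome 7 from 54333168 to 54389054, minus strand). Its level was 195, 131, 224, 208 and 167 CPM in the shNT samples and 177, 205, 206 and 146 CPM in the shRNA samples. The samples of both groups were interleaved. The shNT mean of 185 ± 36.5 CPM (SD, n = 5) and the shRNA mean of 183 ± 28.4 CPM (SD, n = 4) differed by -0.012 on the log2 scale, with a 95% interval from -0.41 to 0.39 (edgeR QL test FDR = 0.969).

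Pcp4 encodes a small calmodulin-binding protein that speeds the exchange of calcium on calmodulin (ENSMUSG00000090223, chromosome 16 from 96689213 to 96747400, plus strand). It was at 12.8, 29.8, 16.9, 9.99 and 15.7 CPM in the shNT samples and 17.4, 14.04, 17.5 and 11.8 CPM in the shRNA samples. shNT sample 2 stood above all others, and the remaining samples of the groups overlapped. shNT samples averaged 17.0 ± 7.64 CPM (SD, n = 5) against 15.2 ± 2.75 CPM (SD, n = 4) in shRNA samples, and the log2 fold change was -0.17 with a 95% interval from -0.79 to 0.45 (edgeR QL test FDR = 0.692). Without shNT sample 2 the log2 fold change turned to 0.13. In the annotation used here 37.9% of the exon bases of Pcp4 are shared with exons of Igsf5, where reads could not be assigned to either gene, so its level may be an underestimate; Igsf5 itself was at 0.157 to 1.62 CPM. The ratio of Pcp4 to Nrgn reads was 0.05004 ± 0.00713 (SD, n = 5) in the shNT samples and 0.0504 ± 0.00954 (SD, n = 4) in the shRNA samples (p = 1 by exact permutation, two-sided).

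Bok, a member of the Bcl2 family, was the only one of the 10 genes taken as a CA3 gene (ENSMUSG00000026278, chromosome 1 from 95582271 to 95592339, plus strand). Its level was 33.9, 54.1, 35.5, 19.2 and 30.6 CPM in the shNT samples and 42.3, 36.9, 50.6 and 41.7 CPM in the shRNA samples. Apart from shNT sample 2, which was the highest of all, the shNT samples lay below the shRNA samples. The shNT mean of 34.6 ± 12.6 CPM (SD, n = 5) and the shRNA mean of 42.9 ± 5.69 CPM (SD, n = 4) differed by 0.31 on the log2 scale (SE 0.24, edgeR QL test FDR = 0.374). Without shNT sample 2 the log2 fold change was 0.52, and with the larger name set alone it was 0.032.

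Divided by exon length, the levels of the 10 genes spanned a wide range in the shNT samples. Ncdn was first with 384 ± 90.2 CPM per kb (SD, n = 5), followed by Nrgn with 259 ± 84.7 CPM per kb, Slc17a7 with 87.8 ± 28.4, Camk2a with 72.7 ± 31.1 and Camk2b with 59.8 ± 15.6 CPM per kb. Ptpn5, Pcp4 and Bok came next with 31.9 ± 6.30, 26.6 ± 11.9 and 24.2 ± 8.80 CPM per kb, and Rgs14 and Amigo2 were the lowest with 10.9 ± 2.66 and 6.17 ± 1.06 CPM per kb. Between neighbours in this order the ranges over the shNT samples were separate only from Nrgn to Slc17a7, from Camk2b to Ptpn5 and from Bok to Rgs14. The genes of excitatory neurons at large thus stood above the CA2 and CA3 genes in level per length, with Ncdn above 98.8% of all genes tested in every sample and Amigo2 between the 52nd and the 67th percentile. In the shRNA samples the order of the means was the same, except that Bok, at 29.9 ± 3.97 CPM per kb (SD, n = 4), stood above Pcp4 at 23.7 ± 4.29 CPM per kb. The place of Pcp4 is uncertain, since its reads were divided by its full exon length. Over the bases not shared with Igsf5 (0.398 kb) its level was 42.8 ± 19.2 CPM per kb (SD, n = 5) in the shNT and 38.1 ± 6.91 CPM per kb (SD, n = 4) in the shRNA samples, with means above those of Ptpn5 and Bok.

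The profiles of the genes over the 9 samples fell near a few others. The distance used was the root mean square difference of log2 CPM after each profile was centred on its own mean. The closest pairs were Ncdn and Ptpn5 (0.16), Camk2b and Amigo2 (0.18), Pcp4 and Nrgn (0.22) and Slc17a7 with Amigo2 (0.23), and the most distant pair was Camk2a and Pcp4 (0.70). shNT sample 2 shows the split: Pcp4, Bok and Nrgn were highest of all 9 samples there, while Ncdn and Ptpn5 were lowest. shNT sample 4 was the lowest sample for 7 of the 10 genes, whereas 14.2% of all genes tested were lowest in that sample, and shRNA sample 3 was the highest for 5 of the 10 genes, against 7.66% of all genes.

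**Figure D3:**
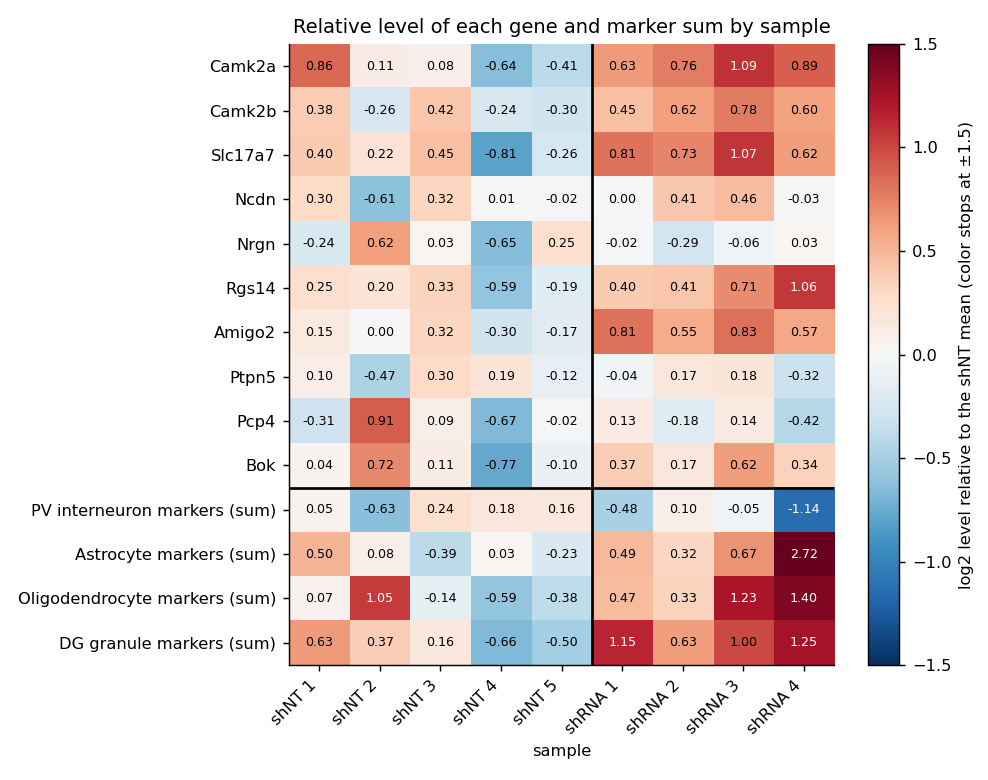
Level of each gene in each sample, and of 4 summed marker lists, as log2 relative to the shNT mean (red above, blue below, with the color limited at 1.5 in either direction and the value printed in each cell). shNT sample 4 lies below the mean for 8 of the 10 genes, all but Ncdn and Ptpn5, and the DG granule and oligodendrocyte sums have their lowest values there as well.

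Among 9495 genes with a mean of at least 10 CPM, the profiles near to each gene were as follows. Nearest to Camk2a were Prickle2, Crtc1 and Ankrd43 (distance 0.11 to 0.13), and nearest to Camk2b were Abl1, Bai3 and D3Bwg0562e (0.074 to 0.080). Slc17a7 was nearest to Mapkbp1, Icam5 and Kcnd2 (0.11 to 0.13). Amigo2 was nearest to Wasf1, Smarcad1 and Dcaf6 (0.10 to 0.12), and Rgs14 to Igsf21, Dkk3 and Gpd1 (0.095 to 0.12). Near to Ncdn were Dis3l2 and Ap2b1 (0.049 and 0.053), and near to Ptpn5 were Fam160b2 and Usp39 (0.040 and 0.050). Bok was nearest to Nrn1, Rprml and Hs3st4 (0.084 to 0.16). The short transcripts Pcp4 and Nrgn had Camk2n1, an inhibitor of CaMKII, in common among their nearest genes, beside Fth1 and Nrgn for Pcp4 and C1qc for Nrgn (0.16 to 0.25).

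The windows around the start sites of Slc17a7, Camk2b and Amigo2 are printed because their groups did not overlap. Windows of 8 of the 10 genes were matched by symbol, without Rgs14 and Camk2a. They are RefSeq sequences of build GRCm38.p6, not of mm9, and each holds 300 bases around the start, most of them before it, in the direction of transcription. Slc17a7 is from chr7:45163671-45163970 on the plus strand, Camk2b from chr11:6065699-6065998 on the minus strand and Amigo2 from chr15:97247238-97247537 on the minus strand. Capitals mark GC boxes (GGGCGG on either strand) and E-boxes (CANNTG).
Slc17a7: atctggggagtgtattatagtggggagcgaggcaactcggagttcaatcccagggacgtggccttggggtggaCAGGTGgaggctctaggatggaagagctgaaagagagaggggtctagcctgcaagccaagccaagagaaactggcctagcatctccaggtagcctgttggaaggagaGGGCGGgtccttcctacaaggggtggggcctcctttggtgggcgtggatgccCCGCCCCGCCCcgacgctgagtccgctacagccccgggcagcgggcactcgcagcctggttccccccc
Camk2b: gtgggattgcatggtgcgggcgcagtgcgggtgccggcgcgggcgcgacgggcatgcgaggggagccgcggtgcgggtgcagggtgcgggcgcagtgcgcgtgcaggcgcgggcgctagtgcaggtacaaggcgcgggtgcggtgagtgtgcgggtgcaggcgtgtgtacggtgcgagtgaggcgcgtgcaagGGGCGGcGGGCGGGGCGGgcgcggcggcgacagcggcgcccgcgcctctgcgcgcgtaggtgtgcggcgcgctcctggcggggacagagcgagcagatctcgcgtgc
Amigo2: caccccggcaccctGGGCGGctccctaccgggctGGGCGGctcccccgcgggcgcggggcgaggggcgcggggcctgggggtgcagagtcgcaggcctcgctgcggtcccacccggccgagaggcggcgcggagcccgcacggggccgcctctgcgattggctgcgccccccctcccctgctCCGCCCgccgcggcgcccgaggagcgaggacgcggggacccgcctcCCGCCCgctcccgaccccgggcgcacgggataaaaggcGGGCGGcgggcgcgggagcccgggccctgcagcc

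These windows held 3, 3 and 5 GC boxes, overlapping ones included, and a GC box was found in 35.7% of 32851 RefSeq windows of the same length. Their GC content was 63.7% in Slc17a7, 77.3% in Camk2b and 83.3% in Amigo2, against a median of 52.7% over all windows. An E-box was present in the window of Slc17a7, as in 72.3% of all windows. None of the 3 windows held the cAMP response element (TGACGTCA, in 1.79% of all windows, or its core TGACG, in 20.8%), a CAGATG (17.2%) or a TATA box (TATAAA, 13.6%). GC boxes were also found in genes whose groups overlapped. Ptpn5 had 5 in a window of 69.0% GC and 0 in another of 48.7%. Ncdn had 1, 1 and 0 (69.0%, 68.0% and 58.0% GC), Nrgn and Bok 1 each (59.3% and 56.3%) and Pcp4 0 (48.7%).

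CaMKII and the calmodulin-binding proteins among the 10 genes work with other proteins of the same pathway, for which 17 genes were listed. None of the 17 was called in either direction (1.75% of all genes), and 8 had a log2 fold change above 0 (57.9% of all genes). Their median was -0.11, against 0.11 over all genes tested (edgeR QL test). The groups did not overlap for 9 of them, 4 higher and 5 lower in the shRNA samples, where 8.97% of all genes tested were higher and 6.68% lower in this way. Camkv, a kinase-like calmodulin-binding protein, Camkk1 and Camk4, which act in the CaMK cascade, and Ppp3ca, a catalytic subunit of calcineurin, were higher in every shRNA sample than in any shNT sample, and Calm2, Camk1, Pcp4l1 and Camk2n2 were among those lower in every shRNA sample. Calm2, which encodes calmodulin, averaged 2885 ± 607 CPM (SD, n = 5) for shNT against 2023 ± 133 CPM (SD, n = 4) for shRNA (edgeR QL test FDR = 0.103). Its mean was lower in the shRNA samples while those of Camk2a and Camk2b were higher.

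Of 15 paralogs of the 10 genes, 14 were tested and none was called (1.75% of all genes, edgeR QL test). The log2 fold change was above 0 in 7 (57.9% of all genes) and below 0 in 7 (42.1%). The other vesicular glutamate transporters were low, with Slc17a6 (VGLUT2) at 0.735 ± 0.297 CPM (SD, n = 5) and 2.13 ± 1.66 CPM (SD, n = 4), where log2 fold change was 1.501 (edgeR QL test FDR = 0.0800), and Slc17a8 (VGLUT3) at 4.07 ± 0.563 CPM (SD, n = 5) and 3.26 ± 1.604 CPM (SD, n = 4). Amigo1 was at 167 ± 44.9 CPM (SD, n = 5) and 159 ± 52.4 CPM (SD, n = 4), and Amigo3 at 0.888 ± 0.252 CPM (SD, n = 5) and 1.67 ± 0.409 CPM (SD, n = 4), where log2 fold change was 0.90 (edgeR QL test FDR = 0.0845). Rgs12, a further regulator of G protein signalling, was at 18.3 ± 5.55 CPM (SD, n = 5) and 35.1 ± 18.5 CPM (SD, n = 4), where log2 fold change was 0.94 (edgeR QL test FDR = 0.0772). Every shRNA sample of Rgs12 lay above every shNT sample, but the lowest shRNA sample (24.5 CPM) barely exceeded the highest shNT sample (24.4 CPM). Pcp4l1, the paralog of Pcp4, was at 722 ± 104 CPM (SD, n = 5) and 426 ± 98.0 CPM (SD, n = 4), where log2 fold change was -0.76 (edgeR QL test FDR = 0.0621). Rgs10, which like Rgs14 is a regulator of G protein signalling, was at 169 ± 33.3 CPM (SD, n = 5) and 97.3 ± 31.3 CPM (SD, n = 4), where log2 fold change was -0.79 (edgeR QL test FDR = 0.0681). Pcp4l1 and Rgs10 were lower in every shRNA sample than in any shNT sample, for Rgs10 by a thin margin (129.9 against 131.8 CPM). Of all genes tested, 8.97% were higher and 6.68% lower in this way.

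Of 15 other genes of excitatory neurons, 13 had a log2 fold change above 0, against 57.9% of all genes, with a median of 0.81, against 0.11, and 1 was called, against 1.75% of all genes. Their log2 fold changes were uneven, with 0.039 for Hpca, 0.027 for Chn1 and -0.47 for Cck. The called gene was Tbr1, a transcription factor of glutamatergic neurons. It rose from 6.33, 5.23, 5.87, 2.27 and 4.33 CPM in the shNT samples to 8.94, 10.2, 12.4 and 14.1 CPM in the shRNA samples (log2 fold change 1.24, edgeR QL test FDR = 0.0497). Of 11 mRNAs known to be carried into dendrites, Camk2a and Nrgn included, 9 had a log2 fold change above 0 (57.9% of all genes). None of the 11 was called (1.75% of all genes). Map2, at 369 ± 117 CPM (SD, n = 5) and 760 ± 138 CPM (SD, n = 4), was just short of a call (edgeR QL test FDR = 0.0503).

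Among 8 CA3 markers, all 8 had a log2 fold change above 0, against 57.9% of all genes tested. Of the 8, 1 was called (1.75% of all genes), namely Grik4, a kainate receptor subunit of CA3 pyramidal neurons. Its level was 16.4, 13.6, 15.7, 11.05 and 9.13 CPM in the shNT samples and rose to 29.6, 24.8, 32.3 and 31.6 CPM in the shRNA samples (log2 fold change 1.17, edgeR QL test FDR = 0.0403). Among 10 CA2 markers, 9 were tested, 6 had a log2 fold change above 0 (57.9% of all genes) and none was called (1.75% of all genes). The largest difference among them was that of Actn2, an actin cross-linker of spines, at 220.5, 29.4, 48.0, 10.4 and 21.5 CPM in the shNT samples and 619, 711, 1183 and 124 CPM in the shRNA samples (log2 fold change 3.32, edgeR QL test FDR = 0.0608). shNT sample 1 and shRNA sample 4 overlap there. Its paralogs Actn1, Actn4 and Actn3, which are not on the CA2 list, had log2 fold changes of 3.20, 3.205 and 1.81, and Actn1 was called (FDR 0.0433, 0.0544 and 0.0630, edgeR QL test). All 4 CA1 markers (the most abundant being Wfs1 and Fibcd1) and all 5 DG granule cell markers also had a log2 fold change above 0. None of them was called. Over all genes 57.9% were above 0 and 1.75% called.

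Markers of other cell types also differed between samples, and their part in the differences of the 10 genes was not tested. The summed level of 5 DG granule cell markers (Prox1, Dsp, C1ql2, Lct and Tdo2) was 26.5 to 65.3 CPM in the shNT samples and 64.9 to 99.9 CPM in the shRNA samples, and it was lowest in shNT samples 4 and 5. The sum over 8 astrocyte markers was 498 to 926 CPM against 812 to 4296 CPM, and over 7 oligodendrocyte markers it was 764 to 2384 CPM against 1451 to 3029 CPM. All 8 and all 7 were above 0 in log2 fold change (57.9% of all genes) and none was called (1.75% of all genes, edgeR QL test). All 11 PV IN markers had a log2 fold change below 0 (42.1% of all genes) with none called (1.75% of all genes). Their sum was 5502 to 10076 CPM against 3866 to 9150 CPM. For microglia, 4 of 6 markers were above 0 (57.9% of all genes), with sums of 29.5 to 71.3 CPM and 62.6 to 74.4 CPM. For endothelial cells it was 4 of 5, with sums of 59.3 to 223 CPM and 35.6 to 480.2 CPM. No marker tested was at 0 in all samples of a group. Abundant markers of these lists were Prox1 and C1ql2 of granule cells, Slc1a2 and Gfap of astrocytes, Mbp of oligodendrocytes, Csf1r and C1qa of microglia, and Flt1 and Cldn5 of endothelial cells. Called markers were Reln among 7 markers of other interneurons (6.79 ± 1.94 CPM, SD, n = 5, rising to 15.2 ± 3.06 CPM, SD, n = 4) and Pdgfra between both markers of oligodendrocyte precursors (5.92 ± 1.37 CPM, SD, n = 5, rising to 13.8 ± 3.29 CPM, SD, n = 4), by the edgeR QL test. Over all genes tested, 1.75% were called. Without shNT sample 2 and shRNA sample 4, the samples with the lowest PV IN sums, Amigo2 alone of the 10 genes was called (log2 fold change 0.73, edgeR QL test FDR = 0.0379), and 5 of the 10 genes did not overlap, all higher in the shRNA samples (Camk2b, Rgs14, Bok, Slc17a7 and Amigo2). Of all 14270 genes tested without these samples 4.77% were called, and 16.8% were higher and 8.08% lower in every shRNA sample than in any shNT sample.

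Fold changes also ran with exon length over all genes tested. The median log2 fold change was -0.32 in the quintile of genes with the shortest exons and 0.45 in the quintile with the longest. Camk2a and Camk2b, with 7.46 and 9.13 kb of exons, are in the longest quintile, and Bok, Nrgn and Pcp4, with 1.43, 1.29 and 0.641 kb, are in the shortest. With the trend removed from each sample the log2 fold change was 0.44 for Camk2a, 0.19 for Camk2b and 0.093 for Ncdn, but it was 0.73 for Slc17a7, 0.67 for Amigo2 and 0.67 for Rgs14. Those of Pcp4 and Nrgn turned to 0.31 and 0.15, that of Bok was 0.55 and that of Ptpn5 was -0.27. None of the 10 genes was called after this correction (FDR 0.0880 to 0.777, edgeR QL test), and the groups did not overlap for Rgs14, Slc17a7 and Amigo2. The share of all genes without overlap was not computed after this correction.

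**Figure D4:**
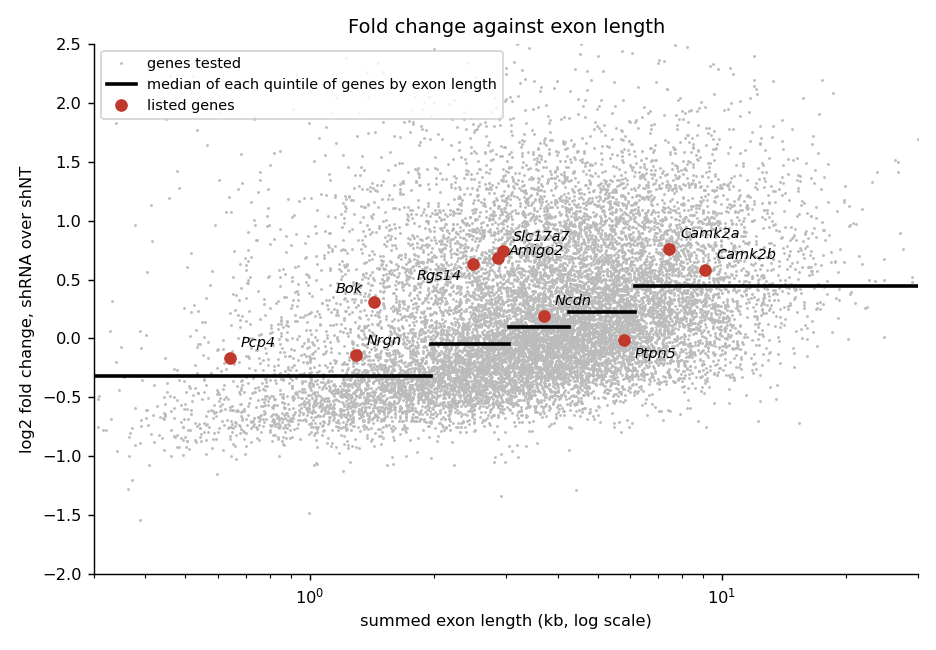
log2 fold change of shRNA over shNT samples against summed exon length in kb (log axis) for the genes tested (grey), with the median of each quintile of genes by exon length (black lines) and the 10 genes (red). The medians run from -0.32 in the shortest quintile to 0.45 in the longest, and Rgs14, Amigo2 and Slc17a7 lie well above the median of their quintile (-0.048).

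How far the groups lay apart depended on the scaling of the samples. With library size as the only scaling, the groups did not overlap for 3 of the 10 genes (Camk2b, Slc17a7 and Amigo2), and with shNT sample 2 as the TMM reference this held for Amigo2 alone. Over all genes, 7.59% were higher and 7.53% lower in every shRNA sample than in any shNT sample with library size only. With shNT sample 2 as the TMM reference these shares were 6.72% and 10.3%. In both settings edgeR called 0 of 15069 genes, Tbr1 and Grik4 included, with 5258 and 5070 at an unadjusted p under 0.05. Within the larger set of sample names the log2 fold changes were 0.54 for Amigo2, 0.49 for Slc17a7, 0.41 for Camk2a, 0.38 for Camk2b and 0.22 for Rgs14. What these sets of names stand for is not given in the sources used here, and the smaller set, with 1 shRNA sample, allows no test of its own.

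**Figure D5:**
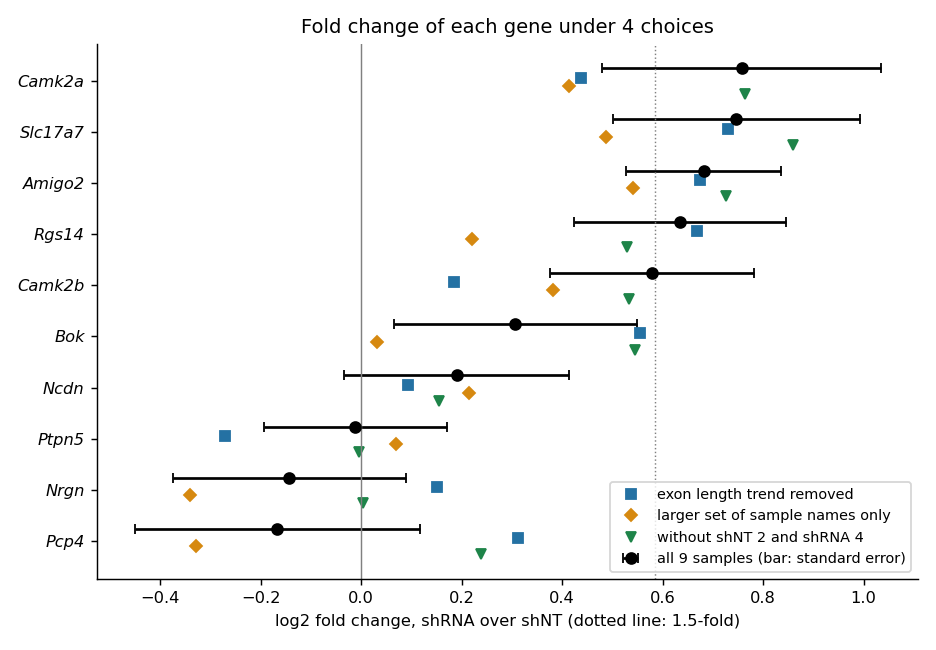
log2 fold change of each gene, shRNA over shNT, with all 9 samples (black, bar for the standard error), with the exon length trend removed (blue), within the larger set of sample names (orange) and without shNT sample 2 and shRNA sample 4 (green); the dotted line marks 1.5-fold. Slc17a7 and Amigo2 stay between 0.49 and 0.86 under all 4 choices, and Pcp4, Nrgn and Ptpn5 cross 0.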

How the data were processed

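RNA was immunoprecipitated with the HA tag, amplified and sequenced in 50-base reads. The authors aligned the reads to mm9 with STAR, counted uniquely aligned reads on genes, strand ignored, with HTSeq 0.6.0, and deposited these counts per sample without normalization; the submitters' notes give no STAR version. Symbols, positions and exon lengths came from the GENCODE annotation of the same build, which named 37205 of 37620 identifiers.

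The 15069 genes that reached 1 CPM in 1 or more samples were scaled with TMM and tested with edgeR 4.0.16 (quasi-likelihood test, condition as the only term) in R 4.3.3, with Benjamini-Hochberg adjustment over all of these genes (FDR). The study names edgeR but not which test. A call needed both an FDR below 0.05 and groups 1.5-fold apart or more. A prior count of 2 was added for log2 levels. The 95% intervals use the moderated degrees of freedom of the fit. Ratios of raw counts were compared by exact permutation of the group labels.

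All 10 genes were named, together with the called genes of each other list or, failing those, its most abundant ones; other names (Igsf5, Rgs10, Rgs12, Amigo3, Slc17a6, Slc17a8, Hpca, Chn1, Cck, Actn1, Actn3, Actn4 and those listed because groups do not overlap) were chosen after their values were seen. A few genes that this rule would name are not reported here. The genes and lists were chosen with earlier results of these data known. Counts were simulated for the comparison of shRNA with shNT samples, with 14572 genes of which 200 were changed 2-fold. Of the 200, 109 were recovered with the right sign, and 5 others were called. How calls depend on the TMM reference or on samples left out was not tested on these counts. The share of false calls in the real samples was not tested. Alternatives were other tests (likelihood ratio, DESeq2 1.42.0, limma 3.58.1 voom), scalings, filters, blocks, an exon length correction and samples left out. Sample quality weights, which give less weight to samples far from the fit, were part of the limma voom fit.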

Additional observations from a re-analysis of the deposited data

Results flagged for a closer look

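Each of 64 groups of values (levels of the 10 genes, ratios, marker sums and alignment shares, in 1 group of samples at a time) was searched for a sample far from the rest of its group, and 7 were found where chance gives about 1 in 20, or 3.2. The ratio of Pcp4 to Nrgn reads was 0.0362 in shRNA sample 4, against 0.0536 to 0.0568 in the other shRNA samples. None of the 10 genes had such a sample in its own level. The sum of PV IN markers was 5502 CPM in shNT sample 2, against 8840.5 to 10076 CPM in the other shNT samples, and the sum of oligodendrocyte markers there was 2384 CPM, against 764 to 1203 CPM. In shNT sample 2, 18.6% of uniquely aligned reads lay outside exons, against 9.77% to 11.3%. In shRNA sample 4 the astrocyte sum was 4296 CPM (812 to 1039 CPM in the other shRNA samples), the endothelial sum was 480.2 CPM (35.6 to 90.8 CPM), and 8.24% of alignments were at several places (10.6% to 10.8%).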

How the results depend on the processing

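Over 23 alternatives, Camk2a, Camk2b, Ncdn, Rgs14, Bok, Slc17a7 and Amigo2 kept a log2 fold change above 0 in all of them. The number of the 10 genes called was 0 in 17 of them. Both DESeq2 and the likelihood ratio test of edgeR called 4 (Camk2a, Rgs14, Slc17a7 and Amigo2), against 2363 and 2230 of all 15069 genes. With limma voom and its sample quality weights 6 were called (Camk2b and Bok added), against 2919 of all 15069 genes. A block for the name set called 1 (Amigo2), against 377 of all 15069 genes. With each sample left out in turn, 0 to 2 of the 10 genes were called. The 2 were Camk2a and Amigo2 without shNT replicate 1, where 9.41% of all genes were called. Without shNT sample 2 and shRNA sample 4, an alternative chosen after seeing the data, 1 was called (Amigo2), against 4.77% of all genes. Over all genes, 264 of 15069 were called in the main fit, 515 of 24072 with no filter and 680 of 14270 without shNT sample 2 and shRNA sample 4. With each sample left out, 0 to 1417 genes were called. The count was 0 with library size only (5258 at an unadjusted p under 0.05), with edgeR's filterByExpr (5139), within the larger set of names (1493), with exon length removed (4307), with a covariate for reads outside exons (4479) and with shNT sample 2 as the TMM reference (5070, chosen after seeing the data). TMM takes shNT sample 3 as reference with all 9 samples. It switches to shNT sample 2 when shNT replicates 3, 4 and 5 and shRNA replicates 1 and 3 are each left out. Each of these left 0 genes called by edgeR (3473 to 4625 at an unadjusted p under 0.05). The reference is also shNT sample 2 with filterByExpr (0 called) and with the replicate number as a block (34 called). Without shNT replicate 1, 1417 were called, with 482 without shNT replicate 2 and 142 without shRNA replicate 4.

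The count of genes whose groups do not overlap, 4 with all samples, ran from 1 to 5 with each sample left out (1 without shNT replicate 4, shNT replicate 5 or shRNA replicate 3, 2 without shRNA replicate 1 and 3 without shNT replicate 3). In each of these 5 the TMM reference also switched to shNT sample 2, which with all 9 samples gave 1. With each sample left out, 6.81% to 13.6% of all genes were higher and 6.65% to 14.3% lower in every shRNA sample than in any shNT sample. With the scaling of all 9 samples kept, a choice made after seeing the data, the count ran from 4 to 5 with each sample left out. The shares over all genes were then 9.16% to 13.54% higher and 6.74% to 12.78% lower. The count was 2 (Slc17a7 and Amigo2) with filterByExpr, against 6.66% of all genes higher and 10.2% lower. Amigo2 was among the genes without overlap in each of the 17 alternatives in which overlap was counted. Signs turned for Pcp4 (0.26 with limma voom, 0.31 with exon length removed, 0.24 without shNT sample 2 and shRNA sample 4, and -0.39 to 0.13 with each sample left out), for Nrgn (0.12, 0.15, 0.00457 and -0.36 to 0.037 likewise) and for Ptpn5 (0.052 with limma voom, 0.031 with library size only, 0.069 in the larger set of names, 0.26 with reads outside exons as a covariate, and -0.15 to 0.076 with each sample left out); the causes were not tested. The log2 difference of the Pcp4 to Nrgn ratio turned to 0.056 in the larger set of names and to 0.22 without shNT sample 2 and shRNA sample 4, and with 1 sample out at a time it ran from -0.067 to 0.15.

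Replicate numbers 1 to 4 are shared by the groups, but deviations of same-numbered samples correlated at -0.27, -0.64, 0.49 and -0.18, so the numbers were not taken as pairs. With the replicate number as a block, 34 genes and 0 of the 10 were called, and the log2 difference of Slc17a7 to Slc32a1 was 1.25 (exact sign-flip permutation, p = 0.25, smallest possible 0.125). Counting error was small for the 10 genes, with at least 198 reads each in every sample.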
